A study of Mus musculus with 6 samples.

Results

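A set of 10 long noncoding RNA genes was examined in mouse G1E-ER4 cells, made up of 3 nuclear-retained lncRNAs (Malat1, Neat1 and Kcnq1ot1) and 7 snoRNA host genes (Gas5, Snhg1, Snhg3, Snhg5, Snhg6, Snhg8 and Snhg12). The members were chosen by name, and all 10 were found among the 48709 Ensembl genes of the count table and passed the filter on low counts. In this cultured erythroblast model the master erythroid transcription factor GATA-1 is under the control of tamoxifen, through a receptor domain (ER) built into it, and adding the drug starts maturation. Both groups carried this fusion and both received tamoxifen for 28 h, given as 100 nM in the growth protocol and as 100 μM in the description of the design. Cells in the CHD4-APR group received 10 μM of a Tat-linked peptide from an aggregation-prone region of CHD4, the ATPase of the NuRD chromatin remodelling complex, from 2 h before tamoxifen. Cells in the CTRL group received a Tat-linked alanine peptide at the same dose and time, and each group had 3 poly(A)-selected libraries. The labels do not say whether the libraries came from separate cultures, so the p-values measure the spread between these libraries, which may be technical, and in a single cell line.

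Nuclear-retained lncRNAs stay where they are made. Malat1 collects in nuclear speckles, the stores of splicing factors, Neat1 is the scaffold on which paraspeckles form, and Kcnq1ot1 is an imprinted transcript that runs antisense through Kcnq1 and silences neighbouring genes on its own chromosome. A snoRNA host gene carries small nucleolar RNAs inside its introns. The snoRNA is trimmed from the excised intron and guides the chemical modification of ribosomal RNA, either ribose methylation (box C/D) or pseudouridylation (box H/ACA), while the spliced host RNA often reaches the cytoplasm and is removed there by nonsense-mediated decay. Several hosts begin with a terminal oligopyrimidine tract, the start that they share with ribosomal protein messenger RNAs. The 2 classes therefore differ in where their RNA is usually found, and the level of the nuclear class against the host class was compared as a check on the nuclear RNA share of the libraries.

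The 3′ ends of Malat1 and Neat1 are shown first because the mature forms of Malat1 and of the long Neat1 transcript end in an A-rich tract written in the genome, not in a tail added later, and the libraries were made from RNA captured on oligo-dT. Capitals mark the A-rich tract, and the U-rich stretches before it are the ones known to fold with it into a triple helix. The sequences are on GRCm38, minus strand, at chr19:5795962-5796069 for Malat1 and chr19:5824708-5824788 for Neat1.
Malat1: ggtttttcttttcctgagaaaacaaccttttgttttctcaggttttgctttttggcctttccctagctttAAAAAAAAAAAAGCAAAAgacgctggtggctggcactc
Neat1: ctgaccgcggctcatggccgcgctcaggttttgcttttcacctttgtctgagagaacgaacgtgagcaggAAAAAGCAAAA
Both hold the run AAAAAGCAAAA, which lies at the annotated end of Neat1 and 292 bases before the annotated end of Malat1. The run was chosen as the longest end of Neat1 found in the last 400 bases of Malat1, so both hold it by choice. Searched on the transcript strand only, the same run occurred in the last 400 bases of 65 of 43368 genes' longest transcripts (0.15%). Malat1 and Neat1 are among these 65. Which forms of either RNA were captured was not tested.

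The start regions of host genes are shown because a pyrimidine tract there is the feature known from ribosomal protein genes. Each line gives 20 bases before and 20 bases after a RefSeq start on GRCm38.p6, 5′ to 3′, and capitals mark a run of at least 5 C or T letters that begins with C within 5 bases of the start, searched on the transcript strand.
Gas5, chr1:161035146-161035185, plus strand: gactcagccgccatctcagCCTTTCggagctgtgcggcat
Snhg3, chr4:132353667-132353706, minus strand: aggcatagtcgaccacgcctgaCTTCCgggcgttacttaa
Snhg8, chr3:123508317-123508356, minus strand: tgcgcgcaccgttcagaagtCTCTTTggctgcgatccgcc
Snhg12, chr4:132308658-132308697, plus strand: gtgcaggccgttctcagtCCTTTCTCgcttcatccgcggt
Such a run was found at 4 of the 7 RefSeq starts of 6 host genes and at 0 of the 2 starts of nuclear-retained lncRNAs, against 18.3% of all 32851 RefSeq starts. The hosts without it were Snhg1 and Snhg5, and a second Gas5 start also lacked it. Neat1 and Snhg6 were not matched.

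The snoRNA cargo of the hosts is shown by 5 examples, because most of its records lie inside annotated host exons. Capitals mark the C box TGATGA and the D box CTGA of box C/D snoRNAs, and the ACA that lies 3 bases from the end of box H/ACA snoRNAs, all on GRCm38.
Snord47 (Gas5), chr1:161038082-161038158, plus strand: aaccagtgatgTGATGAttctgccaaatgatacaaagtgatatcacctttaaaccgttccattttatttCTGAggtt
Snord50a (Snhg5), chr9:88521529-88521600, minus strand: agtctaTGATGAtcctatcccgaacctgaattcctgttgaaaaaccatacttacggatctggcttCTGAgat
Snord50b (Snhg5), chr9:88521797-88521868, minus strand: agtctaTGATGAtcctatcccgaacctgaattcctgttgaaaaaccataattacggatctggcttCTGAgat
Snord87 (Snhg6), chr1:9942463-9942549, minus strand: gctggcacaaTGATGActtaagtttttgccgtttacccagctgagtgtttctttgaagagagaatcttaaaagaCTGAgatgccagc
Snora24 (Snhg8), chr3:123507937-123508066, minus strand: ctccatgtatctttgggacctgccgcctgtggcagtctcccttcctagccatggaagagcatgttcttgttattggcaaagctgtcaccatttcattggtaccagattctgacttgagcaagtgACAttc
Snord50a and Snord50b differ at 1 of 72 bases (98.6% identity), so short reads from the pair could be hard to tell apart.

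The 6 libraries held 41687482 to 49784177 counts, with ranges that overlap between the groups. Levels are normalized CPM (counts scaled to library size), scaled by the trimmed mean of M-values (TMM), and fold changes are log2 of CHD4-APR over CTRL from edgeR's quasi-likelihood test, with a false discovery rate (FDR) adjusted over all 12722 genes tested. At an FDR under 0.05, 38.3% of all genes tested were called, 20.4% higher and 17.8% lower, so a call by itself is common in this comparison. Scaled to total counts alone, 2959 genes were higher and 1474 lower, in place of 2601 and 2270. The 10 erythroid markers were all detected. Their summed level was 70187 to 75711 CPM in CTRL and 59631 to 63635 CPM in CHD4-APR, and its part in the results was not tested. With the 11 hemoglobin genes taken out of the counts, 3 members were called, as with them. Summed markers of megakaryocytes (46.7 to 48.8 against 39.9 to 45.7 CPM), granulocytes and macrophages (3.63 to 4.72 against 3.16 to 4.34 CPM) and lymphoid cells (0.304 to 0.590 against 0.328 to 0.604 CPM) were low, and Gp1bb, Mpo and Cd3e had 0 counts in every library.

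Per kilobase of exon, the members' levels in CTRL spanned from Malat1 to Kcnq1ot1. Malat1 stood at 168 ± 3.02 CPM per kb (SD, n = 3), above Gas5 at 52.8 ± 1.43 and Neat1 at 50.7 ± 2.97, which overlapped each other. Snhg8 followed at 30.5 ± 2.04 CPM per kb. Snhg1 (16.4 to 17.2), Snhg6 (13.2 to 14.4) and Snhg3 (10.2 to 11.0 CPM per kb) came next, each above the following gene in every CTRL library. Snhg5 (4.94 to 5.44) and Snhg12 (4.56 to 5.12 CPM per kb) overlapped. Kcnq1ot1 was lowest at 0.250 to 0.281 CPM per kb, over the 93092 bases that the annotation gives it as a single exon. The lengths merge all annotated exons, retained introns included. They cover all 2969 bases of Snhg1 but only 986 of the 5673 bases of Snhg3, so the order depends on the annotation.

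Of the 10 members, 3 fell and 0 rose at an FDR under 0.05, and 9 of 10 had a fitted log2 fold change below 0, against 51.7% of all genes tested. The 3 called members were Neat1, Gas5 and Snhg8, or 3 of 10 beside the 17.8% of all genes called lower. In 4 members (Neat1, Gas5, Snhg1 and Snhg6) every CHD4-APR library was below every CTRL library, a pattern that 25.0% of all genes showed. The median log2 fold change was -0.19 over the 10 members and -0.01 over all genes tested. The plot of each library as a percent of the CTRL mean shows the members side by side.

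**Figure D1:**
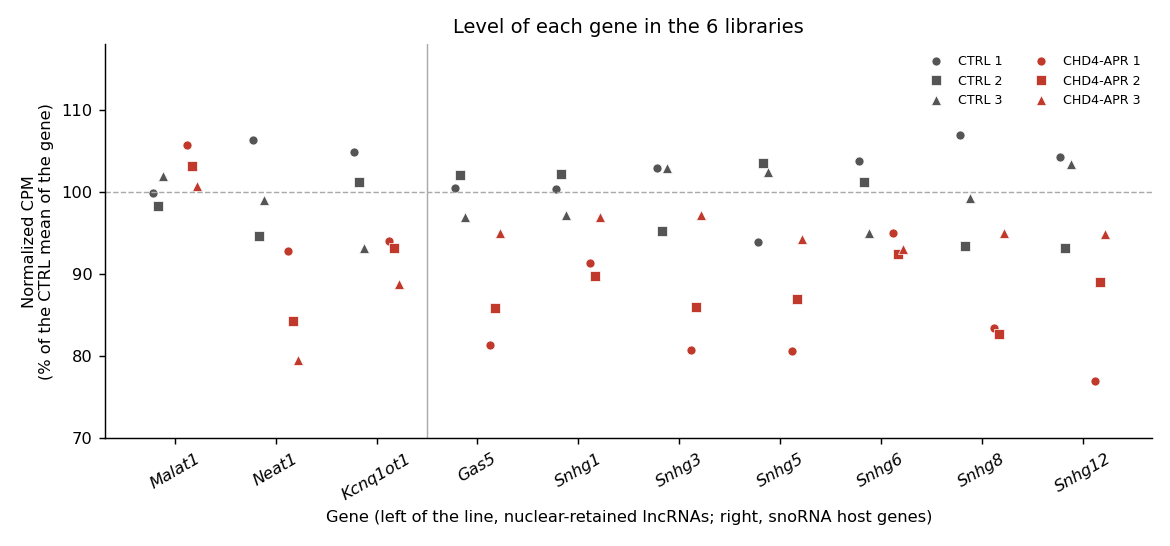
Normalized CPM of each member in each of the 6 libraries, as a percent of that gene's CTRL mean (dashed line at 100%), with CTRL in grey, CHD4-APR in red and the replicate number given by the marker. Malat1 lies between 98.3% and 105.7% in all libraries, whereas the CHD4-APR libraries of Neat1 lie between 79.6% and 92.8%.

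Malat1 (chr19:5795690-5802672, GRCm38, minus strand, annotated as lincRNA) was the most abundant member. It had 1172, 1153 and 1195 CPM in the CTRL libraries and 1240, 1210 and 1181 CPM in the CHD4-APR libraries. The groups overlapped, with CHD4-APR 3 below CTRL 3. The log2 fold change was 0.04 (SE 0.041, 95% interval -0.04 to 0.13), and the edgeR FDR was 0.425. At 49484 to 56939 counts per library, counting error was small for this gene.

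Neat1 (chr19:5824708-5845478, minus strand, lincRNA), which lies next to Malat1 on the same strand, fell. It had 1121, 998 and 1043 CPM in CTRL and 978, 888 and 839 CPM in CHD4-APR, without overlap, the highest CHD4-APR library being 978 and the lowest CTRL library 998. The mean fell from 1054 ± 61.8 to 902 ± 70.8 CPM (SD, n = 3 each), a log2 fold change of -0.22 (SE 0.056, 95% interval -0.34 to -0.11, edgeR FDR 0.00463). Because Malat1 and Neat1 have like depth and lie side by side, their ratio was also taken in each library, a choice made after the values were seen. Neat1 over Malat1 was 0.956, 0.866 and 0.872 in CTRL and 0.789, 0.734 and 0.710 in CHD4-APR. The ratio did not overlap between groups, and the two-sided exact permutation p was 0.10, the smallest that 3 against 3 libraries allow. The pair was chosen from these same values, so this p is no further support for the fall of Neat1. As these are bulk samples, fewer cells with a transcript and less of it per cell cannot be told apart.

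Kcnq1ot1 (chr7:143203458-143296549, minus strand, antisense) had 26.1, 25.2 and 23.2 CPM in CTRL and 23.4, 23.2 and 22.1 CPM in CHD4-APR. The groups overlapped at CTRL 3 and CHD4-APR 1. The log2 fold change was -0.12 (SE 0.065, 95% interval -0.26 to 0.02), and the edgeR FDR was 0.166. Kcnq1, the potassium channel gene that Kcnq1ot1 runs through, had 0 to 2 counts per library and was not tested.

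Among the host genes, Gas5 (chr1:161034422-161038539, plus strand), named for its rise in growth-arrested cells, was the most abundant and fell. It had 200, 203 and 193 CPM in CTRL and 162, 171 and 189 CPM in CHD4-APR. The groups did not overlap, although CHD4-APR 3 was close to CTRL 3. The mean fell from 199 ± 5.38 to 174 ± 13.7 CPM (SD, n = 3 each), with a log2 fold change of -0.19 (SE 0.053, 95% interval -0.30 to -0.08, edgeR FDR 0.00915). Without CHD4-APR 1 the log2 fold change was -0.14 and the call was lost (edgeR FDR 0.0645).

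Snhg8 (chr3:123507552-123508404, minus strand), host of Snora24, also fell. It had 27.8, 24.3 and 25.8 CPM in CTRL and 21.7, 21.5 and 24.7 CPM in CHD4-APR, and CHD4-APR 3 lay above CTRL 2, so the groups overlapped. Its log2 fold change was -0.20 (SE 0.072, 95% interval -0.35 to -0.04), with an edgeR FDR of 0.0413, close to the threshold. The FDR was 0.141 without CHD4-APR 1, 0.169 without CHD4-APR 2, 0.137 without CTRL 1 and 0.0917 without CTRL 3 in the edgeR fits.

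Snhg1 (chr19:8723475-8726443, plus strand), whose introns and retained introns carry 8 annotated snoRNA records, had 50.1, 51.0 and 48.5 CPM in CTRL and 45.6, 44.8 and 48.4 CPM in CHD4-APR. The groups did not overlap, CHD4-APR 3 being just below CTRL 3. Its log2 fold change was -0.11 (SE 0.052, 95% interval -0.22 to 0.00, edgeR FDR 0.114). Snhg6 (chr1:9941959-9944118, minus strand), host of Snord87, had 16.5, 16.1 and 15.1 CPM in CTRL and 15.1, 14.7 and 14.8 CPM in CHD4-APR, with no overlap before rounding. Its log2 fold change was -0.10 (SE 0.070, 95% interval -0.25 to 0.05, edgeR FDR 0.296).

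Snhg3, Snhg5 and Snhg12 were the least abundant hosts. Snhg3 (chr4:132348014-132353686, minus strand), host of the H/ACA snoRNAs Snora73a and Snora73b, had 10.8, 10.0 and 10.8 CPM in CTRL and 8.48, 9.03 and 10.2 CPM in CHD4-APR. Snhg5 (chr9:88521050-88522929, minus strand), host of Snord50a and Snord50b, had 8.55, 9.42 and 9.32 CPM in CTRL and 7.34, 7.91 and 8.58 CPM in CHD4-APR. Snhg12 (chr4:132308623-132311024, plus strand) had 12.3, 11.0 and 12.2 CPM in CTRL and 9.08, 10.5 and 11.2 CPM in CHD4-APR. In each of the 3 genes CHD4-APR 3 lay above the lowest CTRL library, so the groups overlapped. Their log2 fold changes were -0.19, -0.20 and -0.20, each with an SE near 0.09, and none passed the edgeR test (FDR 0.117 for Snhg3, 0.103 for Snhg5 and 0.0974 for Snhg12). Without CHD4-APR 1 they were at -0.12 for Snhg3, -0.14 for Snhg5 and -0.11 for Snhg12. CHD4-APR 3 was the CHD4-APR library nearest to the CTRL mean in 6 of the 7 host genes, Snhg6 being the exception.

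Exonic length and GC content, whose trends across all genes differ between the libraries, moved several members. Their lengths run from 853 bases in Snhg8 to 93092 bases in Kcnq1ot1. With each library's trend of level on length and GC content passed to edgeR as offsets, all 10 members had a log2 fold change below 0, and 5 were called lower (Malat1, Neat1, Kcnq1ot1, Gas5 and Snhg1), where 12.5% of all genes were. Malat1 then changed sign, to -0.18 (edgeR FDR 0.0024). Neat1 was at -0.46 (edgeR FDR 2.8e-05), Kcnq1ot1 at -0.40 (edgeR FDR 3.39e-04), Gas5 at -0.32 (edgeR FDR 1.87e-04) and Snhg1 at -0.25 (edgeR FDR 0.00102). Snhg8, at -0.15, lost its call (edgeR FDR 0.113). The trend removed was 0.22 in Malat1, 0.24 in Neat1 and 0.28 in Kcnq1ot1 on the log2 scale, against -0.05 to 0.15 in the host genes. The shift was therefore larger in the 3 long nuclear RNAs than in the hosts. How well the fitted trend holds at the 93092 bases of Kcnq1ot1 was not tested.

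**Figure D2:**
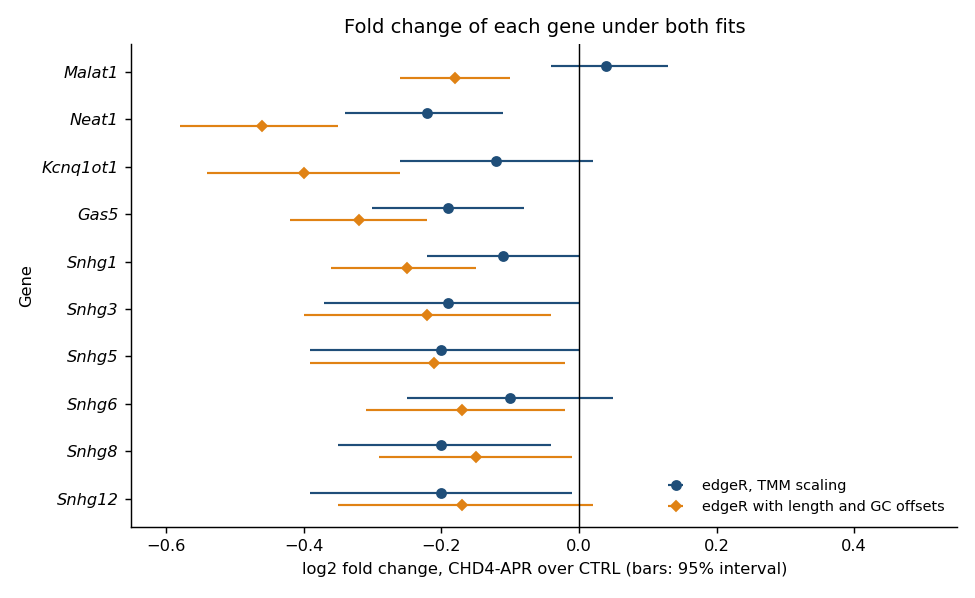
log2 fold change (CHD4-APR over CTRL) of each member with its 95% interval, from edgeR with TMM scaling (blue circles) and from edgeR with length and GC offsets (orange diamonds). Malat1 moves from 0.04 to -0.18 and Neat1 from -0.22 to -0.46, whereas Snhg8 moves from -0.20 to -0.15.

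With TMM scaling, neither class gained on the other by more than the spread of the libraries. The 3 nuclear-retained lncRNAs summed to 2319, 2177 and 2261 CPM in CTRL and 2242, 2122 and 2042 CPM in CHD4-APR. The groups overlapped. Without Malat1, the most abundant of the 3, the other two summed to 1079 ± 62.5 CPM in CTRL and 925 ± 71.4 CPM in CHD4-APR (SD, n = 3 each), without overlap, although their share of all counts overlapped (0.106% ± 0.00472 and 0.0939% ± 0.0078). The mean log2 CPM of the 3 genes, in which each counts alike, also did not overlap, at 8.26 to 8.35 in CTRL and 8.13 to 8.25 in CHD4-APR. As a share of all counts, without TMM scaling, the nuclear class was 0.222% ± 0.00495 in CTRL and 0.217% ± 0.0115 in CHD4-APR (SD, n = 3 each), again with overlap.

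The 7 host genes summed to 326, 325 and 315 CPM in CTRL and 269, 280 and 307 CPM in CHD4-APR, without overlap. Their share of all counts was 0.0317% ± 5.17e-04 in CTRL and 0.0290% ± 0.00176 in CHD4-APR (SD, n = 3 each), also without overlap. Gas5 did not carry this alone, since the other 6 hosts summed to 123 ± 2.41 CPM in CTRL and 111 ± 5.80 CPM in CHD4-APR, without overlap. One by one, 3 of the 7 hosts were lower without overlap, beside 25.0% of all genes tested.

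The ratio of the nuclear sum to the host sum was 7.12, 6.70 and 7.19 in CTRL and 8.33, 7.58 and 6.65 in CHD4-APR. CHD4-APR 1 and CHD4-APR 2 lay above the CTRL libraries and CHD4-APR 3 lay below them. By class medians, the log2 fold change was -0.12 for the nuclear-retained lncRNAs and -0.19 for the host genes, a difference of 0.07, where the class difference of mean log2 CPM had an SD of 0.111 between libraries of a group. The sign of that difference turned with the length and GC offsets, to -0.20 (medians of -0.40 and -0.21), and was -0.01 without CHD4-APR 1. The direction of the nuclear class against the host class therefore depended on the processing.

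**Figure D3:**
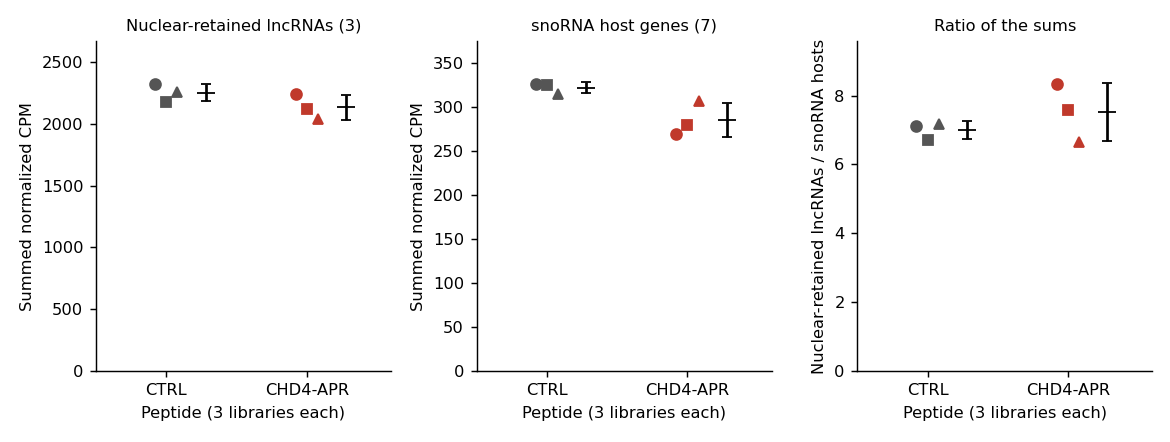
Summed normalized CPM of the 3 nuclear-retained lncRNAs and of the 7 snoRNA host genes, and the ratio of the sums, in each library (points, with the replicate number given by the marker), with the group mean and SD as a cross and bar and axes from 0. The host sums of 269 to 307 CPM in CHD4-APR lie below the 315 to 326 CPM of CTRL, whereas the ratios of the groups overlap.

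Across the 17 settings tried, Neat1 was the only member called in every one. Its log2 fold changes ran from -0.46 to -0.17, with edgeR, DESeq2 or limma-voom FDR values up to 0.0418. The settings refit the same libraries. Over all genes, 3351 to 5214 were called per setting, and the share called in every one was not counted. Gas5 was called in 16 of 17 settings and Snhg8 in 10 of 17. Malat1, Kcnq1ot1 and Snhg1 were called only with the length and GC offsets, with and without a replicate block. Snhg3 was called in 1 setting and Snhg5, Snhg6 and Snhg12 in 0. All members but Malat1 kept a log2 fold change below 0 in every setting. The plot of fold changes by setting shows the 2 offset fits standing apart for the nuclear-retained lncRNAs, Gas5 and Snhg1.

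**Figure D4:**
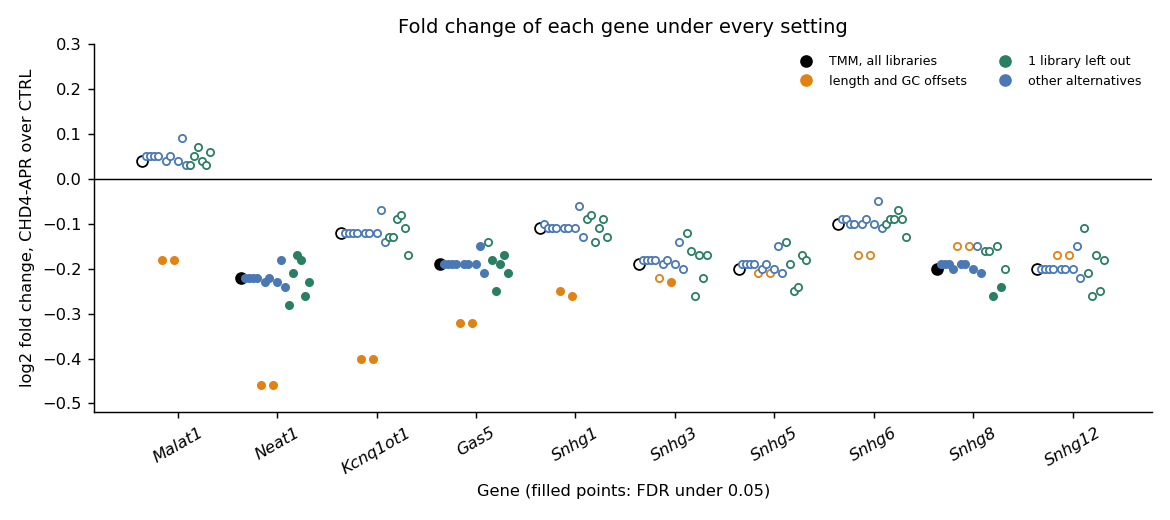
log2 fold change (CHD4-APR over CTRL) of each member under the TMM fit (black), the 2 fits with length and GC offsets (orange), each library left out (green) and the other settings (blue), with filled points at an FDR under 0.05. Every Neat1 point is filled, between -0.46 and -0.17, and Malat1 is above 0 except in the orange fits.

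The genes beside the members did not follow them as a group. Zbtb37, a zinc-finger gene that starts 427 bases from Gas5 on the opposite strand, had 10.3, 12.1 and 12.1 CPM in CTRL and 17.0, 16.1 and 14.3 CPM in CHD4-APR. It rose without overlap (log2 fold change 0.45, SE 0.087, edgeR FDR 7.08e-04) while Gas5 fell, but was at 0.08 with the length and GC offsets (edgeR FDR 0.467). Gas5 over Zbtb37, a ratio chosen after the values were seen, was 19.3, 16.8 and 16.0 in CTRL. In CHD4-APR it was 9.55, 10.7 and 13.2 (two-sided exact permutation p = 0.10, the smallest possible). The ratio restates the opposite moves of the 2 genes, so its p is no further support. Slc3a2, the heavy chain of amino acid transporters, which starts 106 bases from Snhg1, fell from 123 ± 2.29 to 109 ± 1.91 CPM (log2 fold change -0.17, edgeR FDR 0.00515), and was at -0.06 with the offsets (edgeR FDR 0.265).

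Rcc1, the exchange factor of the GTPase Ran, starts 81 bases from Snhg3 on the same strand and shares 135 exon bases with it. It stood at 28.1 ± 1.8 CPM in CTRL and 28.1 ± 2.98 CPM in CHD4-APR (edgeR FDR 0.989). Frmd8os, antisense beside the Neat1 start, had 3.25 ± 0.664 and 2.66 ± 0.066 CPM (log2 fold change -0.28, edgeR FDR 0.183). Mcmdc2, which overlaps Snhg6, and Gm37376, which shares 453 exon bases with Malat1 on the opposite strand, did not pass (edgeR FDR 0.0931 and 0.916). The kit does not mark strand, so reads in such shared bases cannot be assigned to a strand. Gm17300 and Gm37364, opposite Snhg3 and Kcnq1ot1, had 12 counts or fewer per library and were not tested. The misc_RNA records inside Malat1 (Gm27694), Neat1 (Gm27533, Gm27505 and Gm28006) and Kcnq1ot1 (Gm27395, Gm27389, Gm27803 and Gm27539) had 0 counts, apart from Gm27389, with at most 1 count per library.

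The annotation placed 29 snoRNA records inside the 7 hosts, with 10 in Gas5, 8 in Snhg1, 5 in Snhg12, 2 in each of Snhg3 and Snhg5 and 1 in each of Snhg6 and Snhg8. Snord80 and Snora16a each have a pair of records. The 26 records that lie wholly inside annotated host exons, which include retained introns, all had 0 counts in all 6 libraries, whereas the 3 that do not had counts. How reads that fit more than 1 gene were counted is not given in the sources used here, so a count of 0 is no measure of these snoRNAs, which also carry no poly(A) tail. Snora73b, in a Snhg3 intron, had 60, 63 and 69 counts in CTRL and 63, 82 and 73 in CHD4-APR, with overlap (log2 fold change 0.16, SE 0.20, 95% interval -0.25 to 0.58, edgeR FDR 0.550). Snora73a, 159 of whose 205 bases lie in Snhg3 exons, had 6, 10 and 2 counts in CTRL and 6, 13 and 8 in CHD4-APR. The 2 snoRNAs share 96.6% of their bases, so the split of reads between them is uncertain. Snord87 had 3, 6 and 8 counts in CTRL and 0, 3 and 9 in CHD4-APR, too few to test.

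The machinery around the members was taken from lists of known proteins, beside a median log2 fold change of -0.01 over all genes. Of all genes tested, 20.4% were called higher and 17.8% lower, or 13.8% and 12.5% with the length and GC offsets. Of 18 snoRNP proteins, which bind and mature snoRNAs, 7 fell and 1 rose (median -0.16). With the offsets 5 were lower and 1 higher (median -0.10). Nop56, a core protein of box C/D particles, had 169, 172 and 166 CPM in CTRL and 129, 143 and 144 CPM in CHD4-APR (log2 fold change -0.29, edgeR FDR 2.56e-04). Nop10 of the H/ACA particles and the assembly ATPase Ruvbl2 were at -0.19 and -0.28 (edgeR FDR 0.00355 and 9.26e-04), and Ruvbl2 was at -0.11 with the offsets, without a call (edgeR FDR 0.114). Naf1, an H/ACA assembly factor, went the other way, at 0.49 (edgeR FDR 0.00205).

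Of 9 paraspeckle proteins, partners of Neat1, 2 rose and 2 fell (median 0.08), beside 20.4% and 17.8% of all genes. Pspc1, a paraspeckle core protein, was at 0.24 (edgeR FDR 0.00144) and Hnrnpk at 0.15 (edgeR FDR 0.0190). Hnrnph3 and Smarca4 were at -0.22 and -0.11 (edgeR FDR 0.0120 and 0.0367). With the offsets Pspc1 was at 0.03, Hnrnpk at -0.05 and Smarca4 at -0.07, and these 3 lost their calls (edgeR FDR 0.675, 0.313 and 0.194). Of 10 nuclear speckle proteins, the setting of Malat1, 4 rose and 0 fell (median 0.05). Son, a scaffold of the speckle, had 334, 384 and 389 CPM in CTRL and 519, 544 and 500 CPM in CHD4-APR (log2 fold change 0.50, edgeR FDR 5.31e-06, 0.30 with the offsets). Srsf1, Srrm2 and Srrm1 were at 0.23, 0.20 and 0.19 (edgeR FDR 0.00121, 0.00159 and 0.00361), but at 0.01, 0.10 and 0.03 with the offsets, where all 3 lost their calls (edgeR FDR 0.925, 0.0558 and 0.604). With the offsets 2 of the 10 were higher and 2 lower, beside 13.8% and 12.5% of all genes.

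Of 14 nonsense-mediated decay factors, 3 rose and 2 fell (median -0.09), beside 20.4% and 17.8% of all genes. Smg1, the kinase that marks Upf1, was at 0.51 (edgeR FDR 3.37e-06), and Upf2 at 0.23 (edgeR FDR 0.00136), against -0.24 for Smg9 (edgeR FDR 0.00743). With the offsets 2 of the 14 were higher and 3 lower, Smg1 was at 0.21, and Upf2 at 0.08 and Smg9 at -0.09 lost their calls (edgeR FDR 0.205 and 0.258). Of 19 nuclear RNA decay factors, 4 rose and 3 fell (median -0.07). Tent4b, a poly(A) polymerase of nuclear decay, was at 0.53 (edgeR FDR 8.08e-05), Zfc3h1 at 0.35 and Rbm7 at 0.36 (edgeR FDR 2.77e-04 and 3.09e-04), against -0.30 for the exosome subunit Exosc5 (edgeR FDR 0.00222). With the offsets 3 were higher and 5 lower (median -0.04), and Zfc3h1 and Rbm7 were at 0.19 and 0.20.

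Other RNAs of the same 2 kinds were set beside the members, and beside the 20.4% of all genes called higher and 17.8% called lower. These shares were 13.8% and 12.5% with the offsets. Of 15 other nuclear lncRNAs in the table, 4 had 0 counts and 10 were tested, of which 2 rose and 0 fell (median 0.07). With the offsets 1 was higher and 2 lower (median -0.16). Tug1 had 72.8, 81.2 and 78.5 CPM in CTRL and 88.8, 91.1 and 90.2 CPM in CHD4-APR (log2 fold change 0.22, edgeR FDR 0.00245), but was called lower with the offsets, at -0.15 (edgeR FDR 0.00671). Firre was at 0.22 (edgeR FDR 0.00351) and at 0.15 with the offsets. Peg13 and Dleu2 did not pass (log2 fold change -1.05 and 0.13, edgeR FDR 0.0667 and 0.127), and Dleu2 was called lower with the offsets, at -0.32 (edgeR FDR 1.61e-04). The 13 mitochondrial messenger RNAs, made outside the nucleus, summed to 35403 to 38010 CPM in CTRL and 34645 to 36309 CPM in CHD4-APR, with overlap, and 5 fell while 1 rose (median -0.10). With the offsets 10 of the 13 were lower and 1 higher (median -0.24). The 4 with the lowest p-values were mt-Nd3 (-0.32), mt-Nd4l (0.19), mt-Nd6 (-0.29) and mt-Co2 (-0.21), with edgeR FDR values of 3.71e-04, 0.00161, 0.00212 and 0.00472.

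Of 46 further genes that hold a snoRNA record and have a noncoding biotype in the annotation, 16 were tested. They include Cct6a, which is known to encode a chaperonin subunit and did not pass (log2 fold change 0.08, edgeR FDR 0.188). Of the 16, 1 rose while 3 fell (median -0.04, and 0.07 with the offsets). Snhg14, the long imprinted host, had 27.0, 29.5 and 30.8 CPM in CTRL and 49.9, 50.3 and 44.7 CPM in CHD4-APR (log2 fold change 0.73, edgeR FDR 1.02e-06, 0.18 with the offsets). AA465934 was at -0.40 and Rab26os at -1.01 (edgeR FDR 3.41e-04 and 0.00375), and 2410006H16Rik at -0.16 (edgeR FDR 0.0282), which turned to 0.07 with the offsets. Of 30 ribosomal protein genes that host snoRNAs, 28 fell and 0 rose (median -0.20, and 16 lower with a median of -0.12 with the offsets). The 4 with the lowest p-values, Rpl21, Rpl39, Rps2 and Rpl10, were at -0.30, -0.31, -0.25 and -0.27 (edgeR FDR 1.93e-04, 2.13e-04, 2.88e-04 and 3.24e-04), and Rps2 was at -0.07 with the offsets, without a call (edgeR FDR 0.117). Over all genes tested, 20.4% were called higher and 17.8% lower, or 13.8% and 12.5% with the offsets. The 153 other protein-coding hosts tested had a median of 0.07, with 58 higher and 17 lower, or 36 and 32 with the offsets. Gm38393 (2.41), N4bp2 (0.77), Ell2 (0.60) and Vps13b (0.53) had the lowest p-values there, all with an edgeR FDR under 0.05. Beside these, the host members' median was -0.19 with TMM scaling, -0.21 with the offsets and -0.122 without CHD4-APR 1, and its difference from the lists was not tested.

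**Figure D5:**
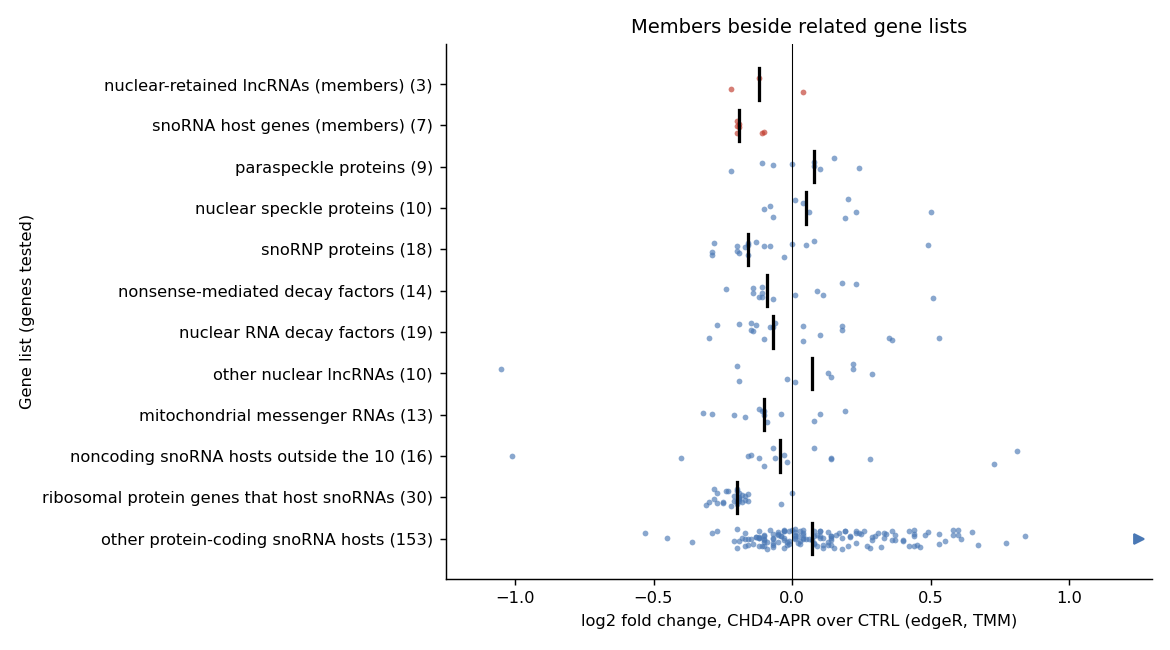
log2 fold change (CHD4-APR over CTRL, edgeR with TMM scaling) of each tested gene, by list, with members in red, other lists in blue and the list median as a black bar. Gm38393, at 2.41, lies beyond the axis and is drawn as an arrow, and 29 of the 30 ribosomal protein hosts lie below 0.

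The genes whose pattern over the 6 libraries was nearest to a member were found by the root mean square difference of centred log2 CPM. For Malat1 they were Trim56 (0.011), Zfyve26 (0.015) and B4galt1 (0.016). For Gas5 they were Mrps18c (0.008), a mitochondrial ribosomal protein, the pseudogene Gm14150 (0.012) and Snrpd1 (0.014), a core protein of spliceosomal particles. The 3 near Gas5 had log2 fold changes of -0.20, -0.20 and -0.21. With 6 libraries and 12722 genes, near matches are a description of these libraries only.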

How the data were processed

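RNA from 6 samples, 3 CTRL and 3 CHD4-APR, was measured by poly(A) RNA sequencing with an unstranded TruSeq RNA v2 kit. The deposited values were raw read counts per Ensembl gene. Per the labels and the study's methods, the authors trimmed reads with Cutadapt, aligned them with STAR 2.7.10a to GRCm38 and counted them with featureCounts. The strand setting and the handling of reads that fit several genes or places are not given in the sources used here, and such reads bear on members that share exon bases with other records. A further 2 columns of the table matched no sample and were not used.

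Counts were filtered with filterByExpr, scaled by TMM and tested with edgeR 4.0.16 (R 4.3.3) by the two-sided quasi-likelihood F-test on group, with Benjamini-Hochberg adjustment over 12722 genes. DESeq2 1.42.0, limma-voom 3.58.1, other scalings (RLE, upper quartile, total counts), no filter, at least 10 counts in every library, removal of 11 hemoglobin genes, a replicate block, length and GC offsets, an FDR of 0.01 and each library left out were alternatives. The offsets came from a smooth (mgcv 1.9.3) of each library's log2 CPM deviation on exonic length and GC content. Names, exons and snoRNA records came from GENCODE M21 (GRCm38), which named 48349 of 48709 IDs, and starts from RefSeq GRCm38.p6. The lists of noncoding and coding hosts were made from the annotation. Procedures were tested on simulated data.

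The genes named were the members, annotated genes that overlap a member or start within 2000 bases of its start, the 4 genes of each list with the lowest edgeR p-value, and the 3 genes nearest in pattern to Malat1 and to Gas5. A gene that this rule names is not reported here. The members and lists were chosen with earlier results of these data known. No replicate pair matched within sampling noise. Totals of 41687482 to 49784177 counts put the members between 328 counts, in Snhg5, and 56939 counts, in Malat1, per library, and the common biological coefficient of variation was 0.0518.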

Additional observations from a re-analysis of the deposited data

How the results depend on the processing

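In place of 3 members, the length and GC offsets gave 5 calls, and 6 together with a replicate block. Leaving out a single library gave 1 to 3, the lowest without CHD4-APR replicate 1. Every other setting called 2 or 3. The median log2 fold change of the nuclear-retained lncRNAs was -0.403 with the offsets, -0.401 with the offsets and block, and between -0.166 and -0.084 when a library was omitted. That of the host genes was between -0.250 and -0.122 when a library was omitted, and -0.122 without CHD4-APR replicate 1. The difference between the class medians was -0.198 with the offsets, -0.194 with the offsets and block, and between -0.010 and 0.163 when a library was omitted. Genes called over the whole table numbered 3250 at an FDR under 0.01, 3351 with the offsets and between 3703 and 4928 when a library was omitted.

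With the offsets, with and without the block, the log2 fold change turned to -0.18 for Malat1, -0.05 for Hnrnpk, -0.15 for Tug1, -0.32 for Dleu2, 0.07 for 2410006H16Rik, 0.10 for Rcc1, -0.05 for Trim56 and -0.08 for Zfyve26. For Gm37376 it was 0.01 by total counts and between -0.23 and 0.07 when a library was omitted. For Rcc1 it was 0.00 with DESeq2, RLE, no filter and at least 10 counts, 0.04 by total counts, and between -0.05 and 0.09 when a library was omitted. The cause of these changes was not tested.

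Same-numbered libraries did not deviate together (r = 0.0697, 0.0552 and -0.035), so the numbers are taken as names only. CTRL 1 and CTRL 2 correlated best with the CHD4-APR library of their own number, and CTRL 3 did not. The replicate block alone called the same 3 members, and 5214 genes. In the 4 least abundant host genes the SE was 0.07 to 0.09, so a log2 difference of about 0.1 was not detectable there.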
